A study of Mus musculus with 24 samples.

Results

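Small RNAs of wild-type mouse neural progenitor cells (NPC) were compared with those of wild-type mouse embryonic stem cells (mESC), the cells from which the progenitors were derived. The 4 libraries used here, 2 of mESC and 2 of NPC, were chosen by their labels as the libraries with wild-type Htt, out of 24 in the series. Htt encodes huntingtin, the protein altered in Huntington's disease. The other 20 libraries are mESC and NPC of 5 lines with changed Htt, an Htt knockout and heterozygous CAG knock-ins named Q20, Q50, Q92 and Q111. They served to estimate the spread and as the set against which the wild-type change was tested. Per the labels, all mESC were grown in serum with leukemia inhibitory factor on gelatin and a feeder layer of irradiated CF-1 mouse fibroblasts. The NPC had been taken through N2B27 medium and were kept as adherent cultures on laminin in a medium with FGF and EGF, without feeders. The series' design gives 2 biological samples per condition. The labels do not say from which mouse strain or clone the wild-type line came, nor whether its 2 NPC cultures came from separate differentiations. The p-values measure the spread between replicate libraries, estimated over all 24, and no spread between independent wild-type lines.

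Pluripotent mouse cells and neural progenitors are known to use different microRNAs. A microRNA is a short RNA cut from a hairpin, and its seed, bases 2 to 8, pairs with target mRNAs. The miR-290 to miR-295 and miR-302 families are the classic microRNAs of embryonic stem cells. Many of their members, though not all, share the seed AAGUGC, which is known to promote the rapid cell cycle of these cells. The microRNAs miR-9, miR-124 and miR-181 and the let-7 family are typical of neural or differentiated cells. Small nucleolar RNAs (snoRNAs) guide chemical modification of ribosomal and spliceosomal RNA, and Y RNAs are short polymerase III transcripts bound by the Ro60 protein.

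Mature sequences of microRNA genes that differed are printed first, because a microRNA recognises its targets through the seed, and several of these genes share one. The counts are per gene, so the arms of a hairpin, and mature and precursor RNA, were not measured apart. Capitals mark the seed. The sequences are from RefSeq (GRCm38.p6), where 24 of the 25 microRNA genes tested had one. The first 8 belong to genes that fell in NPC and the last 6 to genes that rose.
miR-291a-3p: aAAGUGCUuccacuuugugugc
miR-295-3p: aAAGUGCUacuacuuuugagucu
miR-106a-5p: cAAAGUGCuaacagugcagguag
miR-293-3p: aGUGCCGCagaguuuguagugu
miR-293-5p: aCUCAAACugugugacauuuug
miR-292a-5p: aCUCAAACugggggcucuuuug
miR-182-5p: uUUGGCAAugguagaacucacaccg
miR-183-5p: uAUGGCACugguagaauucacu
miR-9-5p: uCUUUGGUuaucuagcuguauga
miR-181a-5p: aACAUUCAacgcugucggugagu
let-7c-5p: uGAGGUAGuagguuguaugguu
miR-351-5p: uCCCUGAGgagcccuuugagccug
miR-30a-5p: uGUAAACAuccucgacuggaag
miR-99b-5p: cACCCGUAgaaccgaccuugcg
Mir291a and Mir295 share the seed AAGUGCU, and the seed of miR-106a-5p holds the same 6 letters, AAGUGC, shifted by a base. Across the 21 mature sequences of the 11 genes that fell, 3 seeds held AAGUGC. Neither seed of Mir293 did. Only the 5p sequence of Mir292 was available, so its 3p seed is not in this count. Of all 1679 mature sequences listed, 16 seeds held it (0.953%), and none of the 15 different mature sequences of the genes that rose did. Mir291a, Mir295 and Mir106a had no count in NPC and entered the comparison through mESC, so they could only fall. The seed count therefore describes the sequences and is no test. Mir292 and Mir293 share the 5p seed CUCAAAC. Among the genes that rose, Mir9-1 and Mir9-3 give the same mature sequences from both arms, and Mir181a-1 and Mir181a-2 share their 5p sequence, so reads of those arms could come from either locus.

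The deposited table holds counts per gene. The total count was 2281567 and 1027593 in the mESC libraries and 682113 and 440699 in the NPC libraries, and 13179 genes had at least 1 count in the 4. At these depths 3 counts, used here as the lowest level that can be told from 0, correspond to 1.38 and 2.58 CPM (counts scaled to a library of 1e6) in mESC and to 4.21 and 5.81 CPM in NPC. A low gene was therefore harder to see in NPC, and limits of this kind cover counting error only. Htt itself had 8 and 8 counts in mESC and 9 and 2 in NPC. The cell-type labels were checked on mRNA fragments. The 8 mESC markers (such as Pou5f1, Nanog and Zfp42) summed to 101 and 66 counts in mESC and were all at 0 in both NPC libraries. The 9 NPC markers (such as Nes, Fabp7 and Olig2) summed to 18 and 14 counts in mESC and to 164 and 167 in NPC, with Sox1 at 0 in NPC. Of 7 feeder markers, Col1a2, Col3a1, Thy1, Postn and Acta2 were at 0 in all 4 libraries, and the sums of 35 and 12 counts in mESC and 1 and 4 in NPC were almost wholly Fn1. Of the neuronal and glial markers, Tubb3 and Gfap were at 0 in all 4 libraries, and the sums of 29 and 8 counts in NPC, against 0 and 1 in mESC, were mostly Map2. Outside these markers the neuronal gene Stmn2 had 5 and 10 counts in mESC and none in NPC. In bulk libraries such as these, fewer cells of a type and less RNA per cell cannot be told apart.

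After a filter on low counts, 440 genes were tested with edgeR's quasi-likelihood test, and a gene was called at a Benjamini-Hochberg adjusted p under 0.05. In all 150 genes (34.1%) were called, 83 higher in NPC (18.9%) and 67 lower (15.2%). The median log2 change of all tested genes was -0.04, and 143 of the called genes changed by a log2 value of at least 1. The groups did not overlap for any called gene, nor for 62.0% of all tested genes. Without NPC replicate 1 the count was 99, with 66 higher and 33 lower, and 98 of these were among the 150. Of the called genes, 26 had a group without a single count. For those the fold is a lower bound, computed against 3 counts over that group. For genes with 1 to 3 counts in a group the ratio is given with its 95% interval from the counts. A gene seen in 1 group passed the filter through that group, so counts of called members below describe the members that passed and not their whole list.

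**Figure D1:**
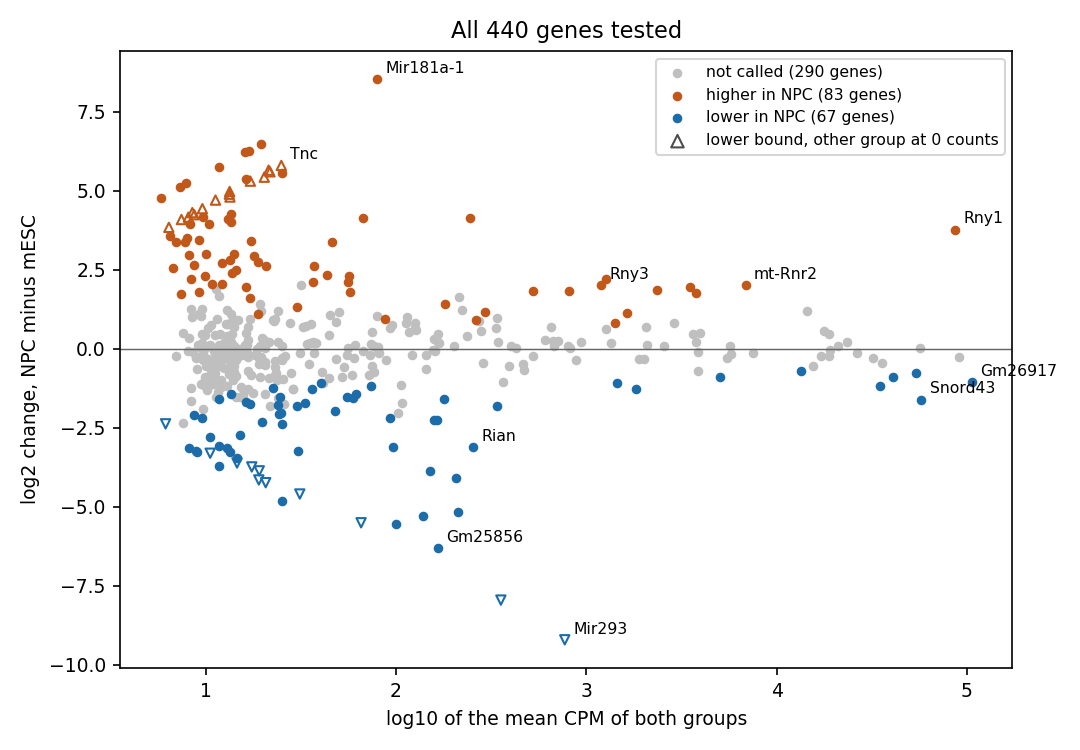
Log2 change (NPC minus mESC, vertical) of the 440 genes tested against the log10 of the mean CPM of both groups. Open triangles are genes with 0 counts in 1 group, drawn at their lower bound, and the called genes reach from Mir293 at the bottom to Mir181a-1 at the top, with Rny1 far to the right at 3.78.

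MicroRNA genes changed in both directions. Of 25 tested, 9 rose and 11 fell (80.0% called, beside 34.1% of all tested genes). Many of the called genes had no count in mESC or none in NPC. They passed the filter through the other group, which fixes their direction, so the 2 shares are not alike in kind. As a class they took 0.234% and 0.479% of the counts in mESC (5349 and 4920 counts) and 0.0582% and 0.123% in NPC (397 and 541 counts).

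The genes of the Mir290 to Mir295 cluster on chromosome 7 made up most of the microRNA counts of mESC and were not seen in NPC. Together they had 3593 and 3749 counts in mESC (67.2% and 76.2% of all microRNA counts) and 0 in both NPC libraries. Mir293 (chr7:3220343-3220422, plus strand) had 2594 and 2197 counts in mESC and 0 and 0 in NPC, at least 590-fold lower (adjusted p 1.12e-07). Mir292 had 759 and 1244 counts in mESC and none in NPC, at least 247-fold lower. Mir295 had 139 and 229 counts against none (at least 45.3-fold lower), and Mir291a had 63 and 55 against none (at least 14.5-fold lower). These hairpins lie across an exon of Nlrp12 that runs on the opposite strand. Mir294, Mir291b and Mir290a had at most 16 counts in any library and none in NPC, and they were below the filter. Of the related Mir302 cluster, Mir302b had 45 and 3 counts in mESC and none in NPC and was likewise untested.

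Other microRNAs of mESC fell to 0 counts in NPC as well. Mir182 and Mir183, neighbours on chromosome 6 (chr6:30165918-30165992 and chr6:30169668-30169737, minus strand) that are transcribed together, had 110 and 86 counts and 58 and 50 counts in mESC. Neither had a count in NPC, and the falls were at least 24.1-fold and 13.3-fold. Mir106a, on the X chromosome in a cluster related to Mir17-92, had 120 and 24 counts in mESC and none in NPC (at least 17.7-fold lower, adjusted p 0.000758). Its list of 15 had 7 members with a count, which summed to 270 and 47 counts in mESC and to 4 and 4 in NPC. Mir20b (57 and 7 counts) and Mir19b-2 (36 and 2 counts) also had more counts in mESC but were too low to test.

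Smaller falls were seen in microRNAs that NPC still held. Mir7-1, which lies in the Hnrnpk gene, had 95 and 25 counts in mESC and 3 and 5 in NPC, a log2 change of -2.30 ± 0.66 (SE, adjusted p 0.00988). Mir101b, in the Rcl1 gene, had 219 and 72 counts against 15 and 19, a log2 change of -1.52 ± 0.54 (adjusted p 0.0359). Leaving out mESC replicate 1 or NPC replicate 1 ended both calls, with adjusted p up to 0.158 for Mir7-1 and 0.265 for Mir101b over all alternatives.

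Of the microRNAs known from neural cells, 4 genes of the Mir9 and Mir181a families passed the filter and rose. Mir181a-1 (chr1:137966455-137966541, plus strand) had 1 and 0 counts in mESC and 60 and 120 in NPC, a ratio of 487 (interval 86.4 to 19400, adjusted p 2.51e-06). Its paralog Mir181a-2 on chromosome 2 had none in mESC and 22 and 26 in NPC, at least 43.3-fold higher. Mir9-1 (chr3:88215598-88215686, plus strand) had 0 and 0 counts in mESC and 12 and 8 in NPC, at least 18-fold higher. Mir9-3 on chromosome 7 had 3 and 1 counts against 17 and 8, a log2 change of 3.94 ± 0.68. The long noncoding gene Gm3764, within which Mir9-1 lies, had 0 and 1 counts in mESC and 16 and 23 in NPC, a ratio of 106 (interval 17.9 to 4280). Gm3764 is outside the lists and outside the rule by which genes were named. The 4 microRNAs were the only tested members of a list of 26 neural microRNAs, of which 13 had a count. The list summed to 13 and 17 counts in mESC and to 118 and 170 in NPC. Most of the mESC sum came from 2 untested members of the miR-181 family with the opposite order, Mir181c (5 and 7 counts in mESC against 0 and 2) and Mir181d (3 and 8 against 1 and 0). Mir124a-2, of the neuron-enriched miR-124, had 2 and 1 counts in NPC and none in mESC.

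Mirlet7c-1 stood alone in its family in having enough counts to test. It lies in the Mir99ahg gene on chromosome 16 (chr16:77599657-77599750, plus strand) and had none in mESC and 12 and 19 counts in NPC, at least 28-fold higher (adjusted p 0.00014). Of the 12 let-7 genes, 7 had no count in any of the 4 libraries. Mirlet7e had 2 and 0 counts against 1 and 6. Mir351, which carries the seed of the miR-125 family, rose from 1 and 2 counts to 47 and 17, a ratio of 57.8 (interval 18.9 to 287).

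The remaining risers were more modest. Mir30a went from 7 and 3 counts in mESC to 11 and 18 in the shallower NPC libraries, a log2 change of 2.99 ± 0.61 (adjusted p 0.000735, and 0.0659 with no filter on low counts). Mir3110 had 2 and 2 counts against 8 and 9 (log2 change 3.40 ± 0.86), and its call was lost without mESC replicate 1 (adjusted p 0.0631), without NPC replicate 2 (0.0522) and with no filter (0.0945). Mir99b, which lies in the Spaca6 gene, had 35 and 12 counts against 24 and 45, or 16.2 and 10.3 CPM against 33.7 and 87.2 CPM. Its log2 change was 2.13 ± 0.66 and the call was lost without mESC replicate 2 or NPC replicate 2 (adjusted p up to 0.321, log2 change 1.03 without NPC replicate 2). Mir877, Mir16-1, Mir6236, Mir5099 and Mir296 were not called, with log2 changes of -1.72, 1.68, -0.33, -0.20 and 0.04 and SEs from 0.51 to 0.96. Mir877 was called with no filter (adjusted p 0.00217) and without NPC replicate 2 (0.0494).

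Whether a microRNA gene had counts went with its place in the annotation. Of 183 microRNA genes that lie inside an exon of another gene on the same strand, 0 had a count in any of the 24 libraries. Of 65 inside an exon on the opposite strand only, 30 had a count, and of 926 that do not lie wholly inside such an exon, 357 did. Mir17 and Mir20a (in Mir17hg), Mir93 and Mir25 (in Mcm7), Mir21a, Mir9-2, Mir124a-1 and Mir125b-1 all belong to the first kind, so their 0 says nothing of their level in either cell type. The same held for 8 of the 15 genes of the Mir17-92 list, 6 of the 12 let-7 genes and 5 of the 26 neural microRNA genes.

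**Figure D2:**
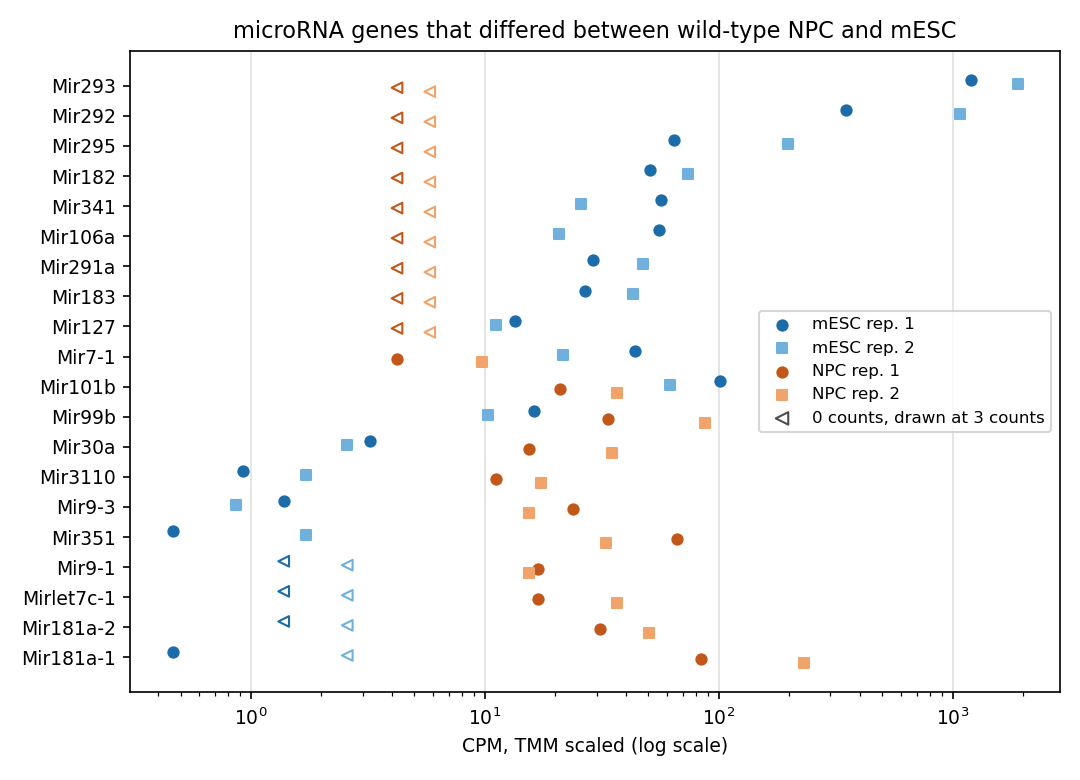
CPM (log axis) of the 20 microRNA genes that differed, 1 point per library. Open triangles stand for 0 counts and are drawn at the CPM of 3 counts, and the genes from Mir293 down to Mir127 have no count in either NPC library while Mir9-1, Mirlet7c-1 and Mir181a-2 have none in mESC.

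RNAs of the imprinted Dlk1-Dio3 domain on chromosome 12 had far fewer counts in NPC. The domain expresses from the maternal chromosome a chain of noncoding RNAs, Meg3, Rian and Mirg, with snoRNAs and microRNAs in their introns. Of 98 genes annotated between the start of Meg3 and the end of Mirg, 46 had a count, and the whole stretch summed to 6567 and 2300 counts in mESC and 74 and 77 in NPC. The 10 that passed the filter fell, but most of them passed it through their mESC counts, which fixes their direction.

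Rian (chr12:109603940-109661716, plus strand) had 1232 and 392 counts in mESC and 43 and 23 in NPC. Its log2 change was -3.10 ± 0.39 (adjusted p 8.15e-06), and the ranges were far apart. Downstream of it, Gm25856 had 1055 and 199 counts in mESC and 3 and 2 in NPC, a log2 change of -6.30 ± 0.74. Gm22981 had 1247 and 284 counts against 1 and 12, a log2 change of -5.16 ± 0.85, and 69.6% of its 30-base stretches occur in the annotated gene Gm23736 too, so its reads may be split. Without NPC replicate 2 its log2 change was -8.37, and without NPC replicate 1 it was -4.14. AF357428 had 701 and 276 counts against 15 and 9, Gm23787 had 813 and 193 against 2 and 6, and Gm25854 had 338 and 274 against 2 and 3. Their log2 changes were -3.85 ± 0.43, -5.30 ± 0.68 and -5.53 ± 0.74. AF357341 fell by 4.10 on the log2 scale (776 and 484 counts against 7 and 19). Gm24564 fell at least 9.85-fold (67 and 13 counts against none).

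These 7 snoRNAs are printed because they fell together. All lie on the plus strand of chromosome 12, Gm24564 within Rian and the other 6 in tandem downstream of it. Capitals mark the first TGATGA and the last CTGA after it, the letters of boxes C and D that a box C/D snoRNA carries near its ends. The sequences are DNA from the GRCm38 annotation.
Gm24564: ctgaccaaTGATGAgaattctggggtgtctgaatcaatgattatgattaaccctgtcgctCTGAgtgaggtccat
AF357428: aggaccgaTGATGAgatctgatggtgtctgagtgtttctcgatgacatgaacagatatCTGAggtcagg
AF357341: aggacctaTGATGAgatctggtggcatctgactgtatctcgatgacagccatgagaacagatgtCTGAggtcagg
Gm22981: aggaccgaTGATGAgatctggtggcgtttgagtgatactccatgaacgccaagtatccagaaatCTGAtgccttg
Gm25856: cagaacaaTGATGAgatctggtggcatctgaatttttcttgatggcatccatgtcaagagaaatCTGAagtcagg
Gm23787: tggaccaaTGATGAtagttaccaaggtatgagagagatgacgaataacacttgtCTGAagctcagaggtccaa
Gm25854: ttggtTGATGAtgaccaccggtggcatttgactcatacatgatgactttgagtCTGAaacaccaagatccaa
All 7 hold TGATGA followed by CTGA on the transcribed strand, as do 24.0% of the 1507 annotated snoRNA genes with a transcript under 500 bases. The 1507 include snoRNAs of other kinds than box C/D, so this share does not set the 7 apart from other box C/D snoRNAs. AF357428 and AF357341 are 81.3% identical, and Gm25856 is 78.7% identical to AF357341.

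The microRNAs of the domain went the same way. Its 60 microRNA genes summed to 291 and 137 counts in mESC and to 1 and 3 in NPC. Mir341, within Rian, had 123 and 30 counts in mESC and none in NPC (at least 18.8-fold lower). Mir127, which lies opposite an exon of Rtl1, had 29 and 13 counts against none (at least 5.17-fold lower, adjusted p 0.000505). Meg3 had 1 and 8 counts in mESC and Mirg 16 and 26, with none in NPC, and neither was tested. Of the wider list of 22 imprinted genes, Mest rose from 1 and 1 counts to 8 and 27, a ratio of 47.4 (interval 12.2 to 407), and Peg10 (22 and 13 counts against 2 and 6) was not called.

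Y RNAs were higher in NPC and took up a large part of those libraries. Rny1 (chr6:47788069-47788180, minus strand) had 30233 and 11131 counts in mESC and 152174 and 57144 in NPC, or 14000 and 9590 CPM against 214000 and 111000 CPM. Its log2 change was 3.78 ± 0.39 (adjusted p 2.46e-06), and both NPC libraries lay far above both mESC libraries. Rny3 (chr6:47781624-47781725, plus strand) had 980 and 577 counts against 1598 and 824, a log2 change of 2.02 ± 0.25 (adjusted p 8.15e-06, and 0.101 with no filter on low counts). Rny1 and Rny3 together took 1.37% and 1.14% of all counts in mESC and 22.5% and 13.2% in NPC. The 10 other mESC libraries lay between 0.683% and 1.69% and the 10 other NPC libraries between 16.2% and 40.5%.

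Gm26168, an annotated RNA elsewhere on chromosome 6 (chr6:122623547-122623658, plus strand), moved with Rny1 and resembles it. It had 67 and 25 counts in mESC and 443 and 159 in NPC, a log2 change of 4.13 ± 0.51. The sequences of the 3 genes are shown because the likeness bears on how these counts are read. Capitals mark the longest run each shares with Rny1, and in Rny1 itself the run shared with Gm26168 (DNA, GRCm38).
Rny1: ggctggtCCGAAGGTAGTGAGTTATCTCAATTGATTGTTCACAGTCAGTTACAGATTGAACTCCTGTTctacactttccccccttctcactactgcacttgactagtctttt
Gm26168: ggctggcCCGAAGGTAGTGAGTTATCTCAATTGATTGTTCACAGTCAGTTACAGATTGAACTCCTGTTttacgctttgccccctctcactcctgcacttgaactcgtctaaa
Rny3: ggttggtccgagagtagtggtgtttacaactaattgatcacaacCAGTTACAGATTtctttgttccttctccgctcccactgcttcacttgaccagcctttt
Gm26168 and Rny1 are 90.3% identical with an unbroken run of 61 bases, and 38.6% of the 30-base stretches of Rny1 are found in Gm26168. Its counts may thus include reads of Rny1. Rny3 is 71.4% identical to Rny1, shares at most 12 bases in a row with it and shares no 30-base stretch with any other gene, and whether reads of 1 were counted as the other was not tested.

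**Figure D3:**
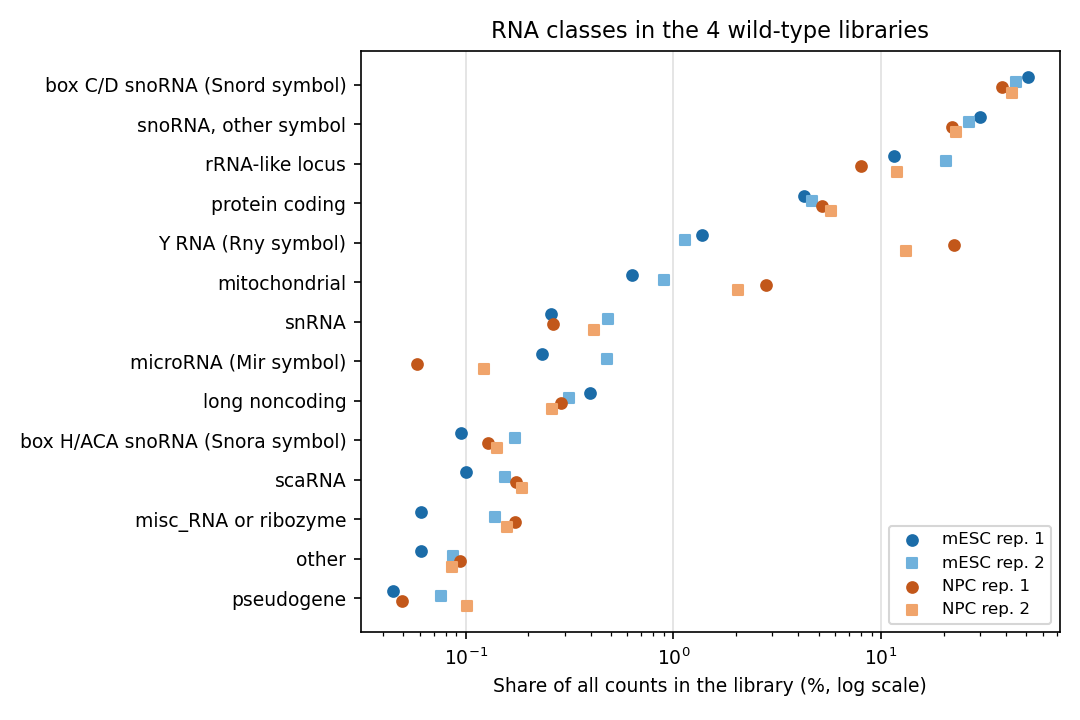
Share of all counts (percent, log axis) that each RNA class took in the 4 wild-type libraries, 1 point per library. Y RNAs lie at 1.37% and 1.14% in mESC and at 22.5% and 13.2% in NPC, mitochondrial RNAs are higher in NPC, and microRNAs are lower.

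The other classes shifted less. Snord genes, the annotated box C/D snoRNAs, took 51.0% and 44.5% of the counts in mESC and 38.4% and 42.7% in NPC. Mitochondrial RNAs took 0.634% and 0.906% against 2.78% and 2.05%. Shares are bound to each other, so a class can lose share because another gains it. With 2 libraries a group, an exact permutation test of a share cannot give a two-sided p below 0.333, and none was used for a call.

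Fragments of mRNA were a minor part of these libraries, at 4.26% and 4.66% of the counts in mESC and 5.17% and 5.74% in NPC. Of 233 protein-coding genes tested 47 rose and 28 fell, 32.2% beside 34.1% of all tested genes. The pluripotency list of 23 mRNAs had counts in mESC for every member. For 21 of them there was no count in NPC, among them Nanog (15 and 10 counts in mESC), Tdgf1 (15 and 18), Fgf4 (15 and 11), Esrrb (13 and 8) and Pou5f1 (7 and 8), which were too low to pass the filter. Tested were Trim71, an RNA-binding ubiquitin ligase known as a let-7 target, and Sox2, which both cell types are known to express. Trim71 fell from 31 and 22 counts to 2 and 0, a ratio of 9.79 (interval 2.58 to 82.9, adjusted p 0.00341). Sox2 had 49 and 14 counts against 7 and 6, a log2 change of -0.73 ± 0.59, and was not called.

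The neural progenitor and radial glia list moved the other way. Of its 25 mRNAs 9 were tested, of which 8 rose and none fell (Sox2 being the ninth), beside 18.9% of all tested genes that rose. Of the 25, 13 had counts in NPC alone, and those of them that were tested passed the filter through NPC, which fixes their direction. Gli3, Prom1 and Sox1 had at most 3 counts a library in mESC and none in NPC. The list summed to 95 and 35 counts in mESC and to 322 and 239 in NPC. Tnc, an extracellular matrix protein of radial glia, had no count in mESC and 38 and 24 in NPC, at least 56-fold higher (adjusted p 2.51e-06). Ptprz1, a receptor phosphatase, had none against 43 and 13 (at least 50.5-fold higher), and Fabp7, the brain lipid-binding protein, had none against 33 and 21 (at least 48.7-fold higher). Slc1a3, the glial glutamate transporter GLAST, was also seen in mESC, with 18 and 6 counts against 58 and 89, a log2 change of 4.16 ± 0.54. Of the Notch pathway, the ligand gene Dll1 had none against 13 and 6 (at least 17.1-fold higher), and the receptor gene Notch1 rose from 4 and 1 to 20 and 12 counts (log2 change 4.02 ± 0.79). Vim and Nfib, for an intermediate filament and a glial transcription factor, rose as well, from 0 and 4 to 17 and 13 counts and from 2 and 1 to 14 and 9 counts.

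Outside the lists, 3 mRNAs were among the 12 smallest p-values of the genes that rose. Serpine2, a secreted protease inhibitor, had no count in mESC and 31 and 13 in NPC, at least 39.7-fold higher (adjusted p 2.46e-06). Olig1, a transcription factor of the oligodendrocyte lineage, had none against 20 and 13 (at least 29.8-fold higher). Ckb, brain creatine kinase, had 0 and 1 counts against 25 and 22, a ratio of 127 (interval 21.8 to 5130). Of its 30-base stretches 18.0% occur in other genes, its pseudogenes included. Of 16 neuronal and glial mRNAs only Map2 was tested, and it rose from none to 27 and 8 counts, at least 31.6-fold. Map2 is a microtubule protein of neurons, and Tubb3 and Gfap were at 0. The whole list summed to 8 and 15 counts in mESC and to 42 and 14 in NPC, and the mESC sum was mostly Stmn2, which had no count in NPC.

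Of the genes that fell, Gm12346, annotated as a pseudogene, had 67 and 32 counts in mESC and none in NPC, at least 12.2-fold lower. Of its 30-base stretches 85.1% occur elsewhere, among other places in Hsp90aa1, a gene for a cytosolic chaperone, which itself fell from 47 and 24 counts to 2 and 1, a ratio of 8.74 (interval 2.87 to 43.4). Reads of the pair cannot be assigned with certainty. Tet1, the 5-methylcytosine dioxygenase of pluripotent cells, fell from 60 and 31 counts to 3 and 0, a ratio of 11.2 (interval 3.71 to 55.3), and was chosen after its values were seen, as was Hsp90aa1.

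Replication-dependent histone mRNAs, made in S phase, were called lower in some cases. Of 67 genes 20 were tested, and 6 fell and none rose (median log2 change -1.12), beside 34.1% of all tested genes called and 15.2% called lower. Hist1h3g had 71 and 76 counts in mESC and 2 and 0 in NPC, a ratio of 27.1 (interval 7.38 to 226). Hist1h4d, Hist1h3a and Hist1h1d had log2 changes of -1.76, -2.07 and -1.52, the last being -2.35 without NPC replicate 2. Core histone genes are near copies of each other (60.7% of the 30-base stretches of Hist1h3g occur elsewhere), so single genes are uncertain. Only 1 of the 20 was called without NPC replicate 1, and 2 in a fit of the 4 libraries alone. Of 10 tested ribosomal protein mRNAs 0 were called with edgeR and 0 with DESeq2, also 0 at an unadjusted p under 0.05 with either, and the median log2 change was -0.59. Without NPC replicate 2, 1 of them was called.

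**Figure D4:**
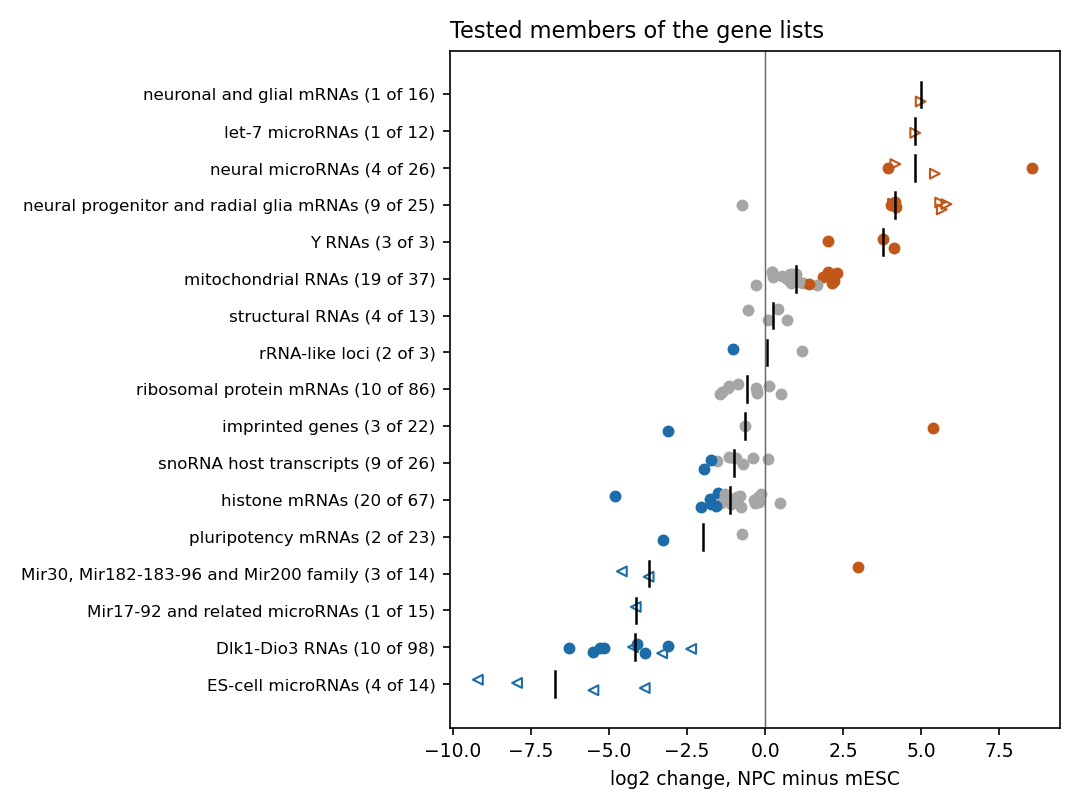
Log2 change (NPC minus mESC) of the tested members of each gene list, with the number tested and the number of members behind each name. Colour marks called genes, grey those not called, open triangles a lower bound, and the bar each list's median; the Dlk1-Dio3 and ES-cell microRNA lists lie wholly below 0 and the Y RNAs and neural lists, other than Sox2, above 0.

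SnoRNAs outside the Dlk1-Dio3 domain changed in both directions, and by less. Of 42 Snord genes tested 5 rose and 7 fell (28.6% called, beside 34.1% of all tested genes). Of 52 snoRNAs with other symbols 3 rose and 11 fell (26.9%). Those 52 include the 7 Dlk1-Dio3 genes above, all of them among the 11 that fell, so the share called outside the domain was lower than 26.9%. Snord90, in an intron of Rc3h2, rose from 801 and 397 counts to 1072 and 537 in the shallower NPC libraries, a log2 change of 1.84 ± 0.25 (adjusted p 2e-05). Snord61, in Rbmx, rose by a log2 value of 1.76 ± 0.36 (4443 and 1607 counts against 4299 and 2901), and Gm25970, in Prpf39, by 1.96 ± 0.43 (3942 and 1227 against 4406 and 2574). These 3 snoRNAs were chosen after their values were seen, and their calls were lost with no filter on low counts.

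Several of the most heavily counted snoRNAs were lower in NPC. Snord43, in an intron of the ribosomal protein gene Rpl3, had 241847 and 71732 counts in mESC and 21073 and 14199 in NPC, a log2 change of -1.60 ± 0.43 (adjusted p 0.00609). Snord82, in Ncl, had 119906 and 47319 against 14302 and 11794, a log2 change of -1.16 ± 0.31. Both calls were lost without mESC replicate 1, with adjusted p up to 0.0909 for Snord43 and 0.0693 for Snord82 over the alternatives, and that of Snord82 also without NPC replicate 1. Gm23301 and Gm26202, both in Rpl17, had log2 changes of -0.77 ± 0.28 and -0.30 ± 0.20. The first was called (adjusted p 0.0427) but lost the call under 7 of 14 alternatives (adjusted p up to 0.393, with a log2 change of -0.43 without mESC replicate 1), and the second was not called. Snord49a, Snord65 and Gm24494 were not called (log2 changes -0.26, 0.03 and -0.45). Both Snord49a and Snord65 lie in the gene 2410006H16Rik, and their counts of 255879 and 92702 against 57398 and 43718, and of 128905 and 60800 against 39227 and 30524, followed the library totals.

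Cajal body RNAs (scaRNAs), which guide modification of spliceosomal RNA, and H/ACA snoRNAs, which guide pseudouridylation, were called in both directions and at about the rate of all tested genes (34.1%). Of 12 scaRNAs 3 rose and 1 fell (33.3%), and of 11 Snora genes 3 rose and 1 fell (36.4%). Scarna3a went from 16 and 11 counts to 20 and 12 in the shallower NPC libraries (log2 change 1.62 ± 0.46, adjusted p 0.00978) and Snora78 from 12 and 4 to 13 and 11 (2.05 ± 0.47, adjusted p 0.00204). Both were chosen after their values were seen, and both calls were lost with no filter. The call of Scarna3a was also lost without mESC replicate 1 or NPC replicate 1, where its log2 change stayed between 1.43 and 1.79. The scaRNA that fell was Gm22728, in an intron of G3bp2, with 450 and 160 counts against 17 and 8 and a log2 change of -3.11 ± 0.48 (adjusted p 5.61e-05). Transcripts that host snoRNAs had 9 tested members, of which 2 fell (median log2 change -1.01). Ncl, which codes for nucleolin, had 110 and 60 counts against 11 and 8 (log2 change -1.72 ± 0.38), and Snhg5 had 146 and 97 against 5 and 17 (-1.97 ± 0.61). The Snhg5 call was lost without mESC replicate 2 or NPC replicate 1 (adjusted p up to 0.222), and without NPC replicate 2 its change was -3.64.

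Mitochondrial RNAs were called at about the rate of all tested genes. Of 37 genes 19 were tested, and 6 rose and none fell (31.6% called beside 34.1%, median log2 change 1.00). Both ribosomal RNAs were among them. The large one, mt-Rnr2, had 4910 and 3692 counts in mESC and 9740 and 4324 in NPC, a log2 change of 2.02 ± 0.37 (adjusted p 0.000299), and the small one, mt-Rnr1, had 1959 and 1309 against 3042 and 1608, a log2 change of 1.86 ± 0.37. The transfer RNA gene mt-Tq rose by a log2 value of 2.22 ± 0.42 (1021 and 497 counts against 2147 and 614), mt-Tc by 2.30 ± 0.50 and mt-Tp by 2.13 ± 0.50. Without NPC replicate 1 the change of mt-Tq was 1.40, and that of mt-Tc was 1.21 with the call lost (adjusted p 0.115). The sixth, mt-Co1, was at the edge of the threshold (adjusted p 0.0499) and lost the call under 8 of 14 alternatives, with log2 changes from 0.91 to 2.16 when a library was left out. With no filter on low counts only 1 mitochondrial gene was called.

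Of the nuclear ribosomal RNA-like loci, Gm26917 had 253239 and 195365 counts in mESC and 38454 and 43618 in NPC. Its log2 change was -1.04 ± 0.31 (adjusted p 0.013), and the call was lost without mESC replicate 2 or NPC replicate 1 (adjusted p up to 0.184), and the change was -1.63 without NPC replicate 2. Gm42418 was not called (9169 and 15494 counts against 15998 and 9069). These counts were a larger share of both shallower NPC libraries than of either mESC library, the opposite order to Gm26917. Both loci had an unadjusted p under 0.05 with DESeq2, and both were called with the replicate block in 24 libraries and with limma voom. The 4 tested structural RNAs, such as the 7SK RNA Rn7sk and the RNase P RNA Rpph1, were not called by edgeR or DESeq2 (0 at an unadjusted p under 0.05 with either), with log2 changes of 0.42 ± 0.29 for Rn7sk and 0.09 ± 0.52 for Rpph1.

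To ask whether the wild-type change stood apart from that of the lines with changed Htt, the NPC minus mESC change was set beside the mean change of the other 5 lines, whose 20 libraries share none with the wild type. In the same 440 genes those lines gave 259 calls (58.9%) from 5 times as many libraries. Of the 150 wild-type calls 143 were called in them in the same direction, which is 95.3% of the wild-type calls and 55.2% of theirs. None was called in the opposite direction, and all 150 had the same sign. Both sets of calls share the fit's estimate of the spread and a filter on wild-type counts, so they are not independent. The log2 changes correlated across the 440 genes (Pearson's r 0.96, Spearman's rho 0.90), a description over genes, which are not independent replicates. For Mir181a-1 the fitted change in the other lines was 9.76, for Rny1 4.53 against 3.78, for Rian -3.43 against -3.10 and for Gm25856 -7.14 against -6.30.

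No gene's wild-type change differed from the mean change of the other lines in a test of that difference. Of 904 genes in this test, 0 were called with edgeR (percent called 0.0) and 0 with DESeq2, with 29 and 16 genes at an unadjusted p under 0.05. The smallest adjusted p was 0.529, for Nudt4, which had 20 and 12 counts in mESC and 1 and 1 in NPC and differed from the other lines by a log2 value of -3.86 ± 0.97. Among the smallest p-values were also genes described above. Their differences were -5.89 ± 1.7 for Gm12346, -2.14 ± 0.62 for Peg10 and 3.63 ± 1.24 for Serpine2, none of them called (edgeR adjusted p 0.686, 0.686 and 0.998). The test was coarse: over 146 wild-type calls the median SE of the difference was 0.66 on the log2 scale. In simulated counts, where all lines shared 1 mean per cell type, the test found 38.5% of 187 genes whose change differed by a log2 value of 2 (787 genes in the step). In the data, 62 of the 904 genes had a group at 0 on both sides, where the test has little to work with. The share found may thus not carry over to the data. A miss is therefore no sign that the lines act alike.

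**Figure D5:**
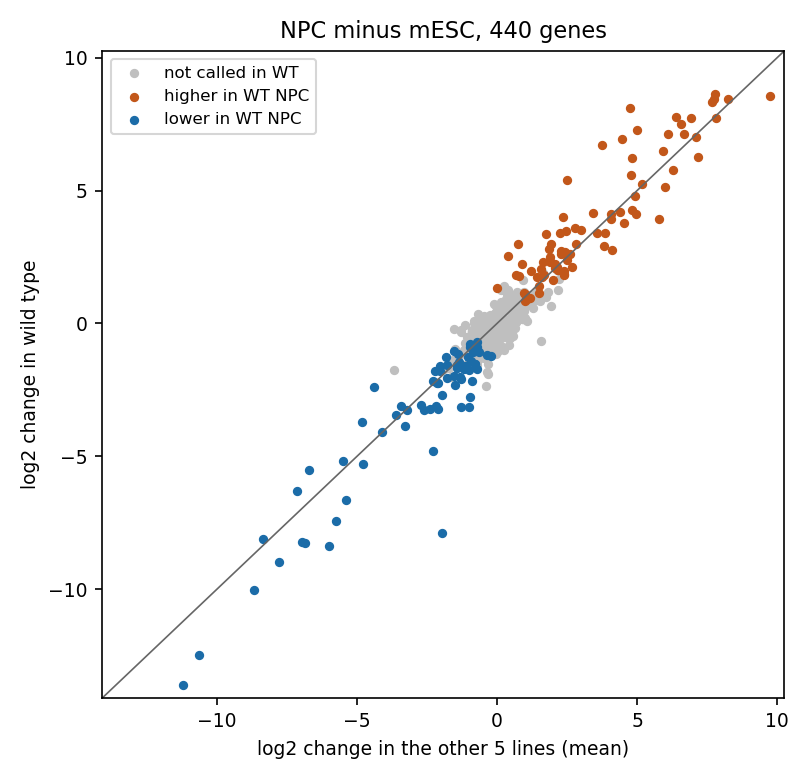
Log2 change in wild type (vertical) against the mean log2 change of the 5 other lines (horizontal) for the 440 genes tested, with the line of equality. Values of genes with a group at 0 are fitted and depend on the fit; all 150 called genes lie on the same side of 0 on both axes (r 0.96).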

How the data were processed

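Small RNA of 24 mouse libraries was read as single reads of 50 bases, per the labels' protocols. The authors deposited 1 table of whole-number counts per gene, not normalized. STAR, HTSeq and CASAVA 1.8 and the build GRCm38.p6 are named in the submitters' processing notes; adapter trimming, strand setting and treatment of reads with several matches are not given in the sources used here. Such steps decide which short or repeated RNAs are counted. Of 55335 gene IDs, 55154 matched GENCODE M21, which gave symbols, classes and coordinates; the rest held 57 of 25027120 counts. The columns named Q89 were taken as the Q92 line.

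Counts were fitted with edgeR 4.0.16 (glmQLFit, glmQLFTest, TMM scaling, R 4.3.3) over 12 groups and 24 libraries, which share 1 estimate of the spread (biological coefficient of variation 32.5%). Genes were kept by filterByExpr on the 4 wild-type libraries (minimum count 10, minimum total 15). CPM values use the TMM-scaled totals. SEs were taken from the log2 change and its F statistic. The difference from the mean change of the other lines was a contrast in a separate fit of the same libraries and groups, with the filter over all groups. In simulated counts, 84.8% of 165 genes changed by a log2 value of 2 were called in the wild-type comparison (366 genes in the step), with 0.709% false calls. Replicate libraries differed by more than sampling noise (chi-square per degree of freedom 200.66 in mESC and 67.33 in NPC). Near copies were counted by shared stretches of 30 bases.

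Named genes were the 12 smallest p-values in each direction (log2 change of at least 1, at least 10 CPM, groups apart), every tested microRNA gene, the 10 most heavily counted genes, up to 4 called members per list and direction, and Htt; a few results are not reported here, and genes outside the rule are described with their lists or marked. The members and lists were chosen with earlier results of these data known. Alternatives were other scalings, no filter, another filter, DESeq2 1.42.0, limma 3.58.1 with voom, the 4 libraries alone, a replicate block and leaving out each library.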

Additional observations from a re-analysis of the deposited data

How the results depend on the processing

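The count of 150 called genes was 146 with DESeq2 size factors, 146 with library totals, 150 with totals that leave out genes above 5% of a library, 140 with the DESeq2 Wald test, 153 with limma voom and 123 in a fit of the 4 libraries alone. With no filter it was 223 of 13179 genes (95 higher, 128 lower), of which 100 were among the 150, and with the filter over all 12 groups 228 of 904. Leaving out each library in turn gave 99 to 140 calls, with 99 (66 higher, 33 lower) without NPC replicate 1, 140 (67 higher, 73 lower) without NPC replicate 2 and 116 without mESC replicate 1. With the replicate number as a block the count was 169 in the fit of 24 libraries and 134 in that of 4; the numbers do not pair the samples by the labels, and the deviations of the wild-type mESC and NPC correlated by 0.288 over 440 genes. The test of the difference from the other lines called 0 genes under its 11 alternatives as well. Of 56 named genes that were called, 19 lost the call under at least 1 of 14 alternatives and none changed sign. Calls gained were of Mir877 with no filter (adjusted p 0.00217), without NPC replicate 2 (0.0494) and with the replicate block (0.0179 in 24 libraries, 0.0203 in 4), of Mir16-1 with the block in 4 libraries (0.0334) and of Gm26202 with totals less genes above 5% (0.0439). Changes of sign were limited to uncalled genes: Mir6236 (-0.99 to 0.80 leaving out a library, 0.80 without mESC replicate 2), Mir5099 (-0.78 to 0.55, with 0.55 without mESC replicate 2 and 0.11 without NPC replicate 1), Mir296 (-0.84 to 0.93, with -0.57 without mESC replicate 1 and -0.84 without NPC replicate 2, -0.04 with totals less genes above 5%, -0.56 unfiltered, -0.08 with the wider filter), Snord49a (-0.58 to 0.05, with 0.05 without mESC replicate 1) and Snord65 (-0.29 to 0.12, with -0.06 without mESC replicate 2 and -0.29 without NPC replicate 2, -0.01 with totals less genes above 5%, -0.63 unfiltered, -0.11 with the wider filter). Without the most abundant gene of each library, the NPC minus mESC difference in share was -1.22 percentage points for Y RNAs, since Rny1 is that gene in NPC, and 4.6 points for rRNA-like loci (2.51 points without genes above 5%). The gene left out was not the same in mESC and NPC, so the -1.22 and 4.6 points compare unlike sets of genes. Within lists, calls that moved were those of Mir17-92 (3 of 7 unfiltered, 3 of 4 with the wider filter), Dlk1-Dio3 (16 of 46 unfiltered), pluripotency mRNAs (10 of 23 unfiltered), neural progenitor mRNAs (14 of 25 unfiltered), rRNA-like loci (2 with the block in 24 libraries, 2 with voom, 0 without NPC replicate 1), snoRNA hosts (1 in the fits of 4 libraries, 1 to 4 leaving out a library), ribosomal proteins (1 without NPC replicate 2), histones (1 without NPC replicate 1, 2 in the fits of 4 libraries) and mitochondrial RNAs (1 of 25 unfiltered). The cause of these moves was not tested. With no filter on low counts, log2 changes were lower both for heavily counted genes and for low ones. Rny3 was at 1.38 against 2.02 in the main fit, and Mir30a at 2.32 against 2.99. Snord65 was at -0.63 against 0.03, and Mir877 at -2.33 against -1.72. The median log2 change was -0.858 over the 13179 unfiltered genes, against -0.042 over the 440. Whether this shift accounts for the calls lost or gained with no filter was not tested. NPC libraries were the shallower, so genes at 0 there are bounded at 4.21 and 5.81 CPM.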

Other observations

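Tested snoRNA genes, scaRNAs left out, were also sorted, after their values were seen, by the gene on the same strand that contains them. Of 28 within ribosomal protein genes 0 rose and 3 fell, with log2 changes from -1.60 to 1.18. Of 52 within other coding genes 10 rose and 5 fell (from -1.66 to 3.37), and of 13 within noncoding genes 1 rose and 3 fell. Of 12 with no such host 0 rose and 8 fell. Over all tested genes 18.9% rose and 15.2% fell. Of these 8, 6 are the Dlk1-Dio3 snoRNAs downstream of Rian and the others are Snord13 and Snora17.

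Of 13 tested genes annotated as snRNA, 3 fell and 1 rose. Gm22265 had 484 and 368 counts in mESC and 26 and 40 in NPC, a log2 change of -2.26 ± 0.45 (edgeR adjusted p 0.000665), and was chosen after its values were seen. Among mRNAs below the ranks named above, Ptn, which codes for the growth factor pleiotrophin, had no count in mESC and 21 and 8 in NPC (at least 26.2-fold higher), and Qk, the RNA-binding protein quaking, rose from 27 and 9 counts to 60 and 23 (log2 change 2.63 ± 0.45).

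The difference between replicate 1 and replicate 2 of wild-type mESC correlated over 440 genes with the same difference in the mESC of KO (0.655), Q92 (0.592), Q111 (0.563) and Q50 (0.522), and by -0.019 in Q20. The labels name no batch, and the part of this shared difference in the comparison of NPC with mESC was not tested.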
